A study of Sus scrofa with 28 samples.

Results

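Genes of lipoprotein assembly and clearance were followed through peak lists of pig liver chromatin, namely APOB, MTTP, TM6SF2, APOA1, APOA4, APOA5, APOC3, SCARB1 and LIPC. These 9 genes are among the 19484 protein-coding genes on the chromosomes of the list. A peak was assigned to a gene when its centre lay inside the gene or within 1000 bp of either annotated end (RefSeq coordinates, Sscrofa11.1). By this rule the 9 genes held 40 of 84192 listed peaks, which chained into 16 sites of 29392 regions. APOA5, APOA4, APOC3 and APOA1 lie beside each other on chromosome 9 and were counted as 1 neighbourhood, so that 6 neighbourhoods were compared. A gene is called listed in a library that has at least 1 such peak.

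Peaks came from ATAC-seq, in which a transposase inserts sequencing adapters into open chromatin. The livers were of female Zlotnicka White pigs aged 180 days and slaughtered at about 100 kg under shared feeding and housing. There were 28 libraries in 4 groups of 7, high fat 200, low fat 200, high fat 600 and low fat 600. The fat groups stand under a label tag named shear force, whose bearing on fat content is not explained, and the labels state neither the tissue whose fat was graded nor what 200 and 600 stand for. The lane tags in the sample names split as the labels 200 and 600 do, so label and lane cannot be told apart. Libraries with the same fat group, replicate and title number were taken as 2 libraries of 1 animal, an assumption, because animals are not named. In bulk liver digests, fewer cells of a type and less open chromatin per cell cannot be told apart.

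The liver packs triglyceride and cholesterol into very low density lipoprotein. Microsomal triglyceride transfer protein, encoded by MTTP, loads lipid onto the scaffold protein apolipoprotein B inside the endoplasmic reticulum, and TM6SF2 takes part in enriching these particles with lipid. Apolipoproteins A-I, A-IV, A-V and C-III sit on lipoprotein surfaces and steer high density lipoprotein formation and triglyceride breakdown. SCARB1 takes up cholesterol from high density lipoprotein, and hepatic lipase, the product of LIPC, trims lipoprotein lipids in the liver.

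All 9 genes were listed at least once, and every one of them was listed in high fat 200 replicate 7. The library high fat 200 replicate 1 listed 7 of 9, and low fat 200 replicate 1 and high fat 600 replicate 7 listed 5 each. Another 5 libraries listed 1 each: high fat 200 replicate 3, low fat 200 replicates 6 and 7, high fat 600 replicate 1 and low fat 600 replicate 1. The other 19 libraries listed none. The libraries that listed a member thus came from 6 of 14 animals, and 31 of the 40 peaks were in the 200 set. These counts take the 4 genes of chromosome 9 singly. By neighbourhood, high fat 200 replicates 7 and 1 each listed 6 of 6. High fat 600 replicate 7 listed 5 and low fat 200 replicate 1 listed 4.

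This pattern moved with the yield of the libraries, which held 39 to 17652 peaks. A library with 3332 peaks was the smallest to list a member, and the largest library without one, low fat 600 replicate 7, had 3775. Of all protein-coding genes, high fat 200 replicate 7 listed 40.3%, beside its 9 of 9 members. For high fat 200 replicate 1 the share was 48.2% of all genes, beside 7 of 9 members. Low fat 200 replicate 7, with 6691 peaks, listed 1 member, TM6SF2, while high fat 600 replicate 7, with 6453 peaks and 26.9% of all genes, listed 5. Libraries of like yield did not always list the same number of these genes. The part of depth in these counts was not tested, since the list holds no read counts.

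**Figure D1:**
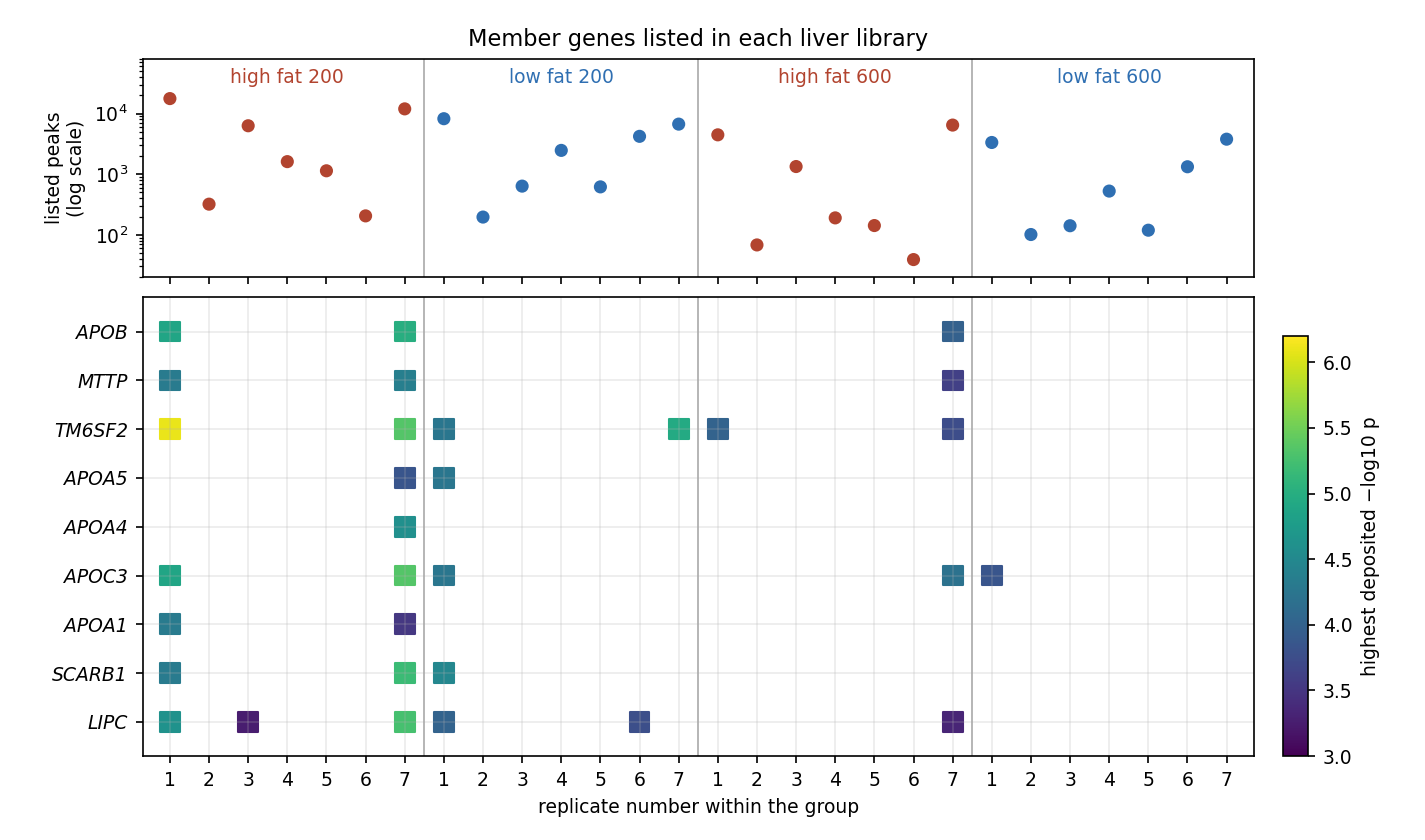
Top, listed peaks per library on a log axis, with high fat in red and low fat in blue. Bottom, a square where a library lists the gene, coloured by the highest deposited −log10 p there. High fat 200 replicate 7 has all 9 genes, and 19 libraries have none.

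**Figure D2:**
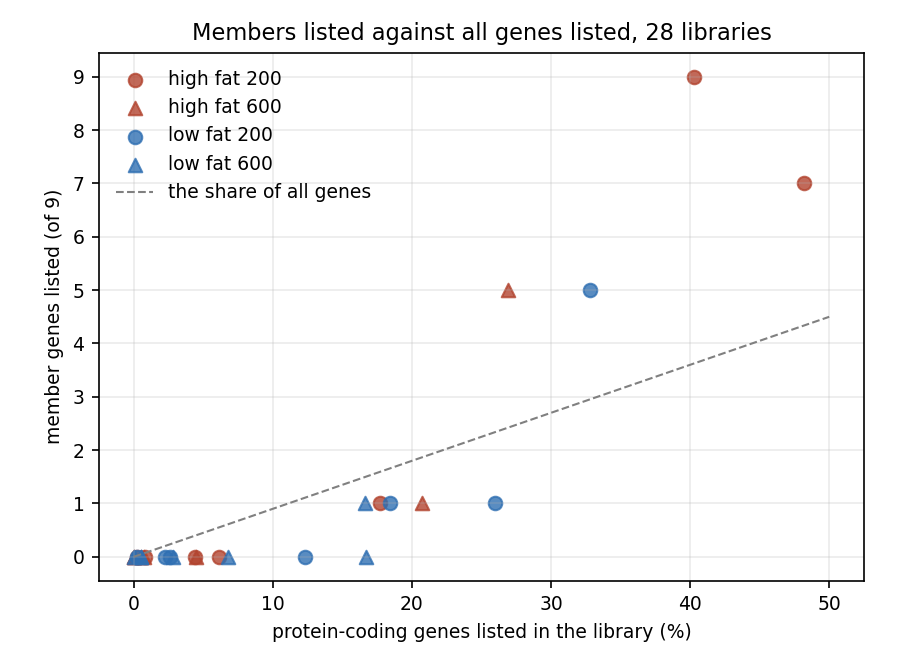
Member genes listed (of 9) against the percent of protein-coding genes listed, 1 point per library. Red is high fat, blue is low fat, circles are 200 and triangles are 600 libraries, and the dashed line is the share of all genes. The libraries with 9, 7, 5 and 5 members lie above the line, and all those with 1 member or none lie below it.

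Over all libraries, 9 of 9 members were listed at least once, against 61.6% of protein-coding genes. The median member was listed in 3 libraries and the median protein-coding gene in 1. Long genes are listed more often by this rule. Of genes under 10 kb 38.7% were listed, and of genes of 100 kb or more 82.2%. The 4 apolipoprotein genes of chromosome 9 span 1.88 to 3.05 kb each, while LIPC spans 170 kb.

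The deposited −log10 p of the 40 member peaks ran from 3.26 to 6.09 with a median of 4.25, which is also the median of all peaks. These are the authors' values, the highest within each peak, and they carry the unknown depth of the library. The median member peak had 52.0% of the peaks of its own library above it. The strongest for its library was the TM6SF2 peak of high fat 200 replicate 1, with 12.5% above it. The weakest was the peak at the lower end of APOA1 in high fat 200 replicate 7, with 97.0% above. Values are coarse, since many peaks of a library share one. A value of 4.32, for example, was shared by 2672 peaks of high fat 200 replicate 1, among them 1 of the 2 peaks each of SCARB1 and MTTP and the peak of APOA1.

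Among the assembly genes, TM6SF2 was listed most widely. It is a membrane protein of the endoplasmic reticulum on chromosome 2 (58617210 to 58627785). All of its peaks fell into 1 site at the lower annotated end, from 58616747 to 58618092. Lower and upper refer to coordinates here, because the table gives no strand and does not say which end is the start site.

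The site was listed in 6 libraries of 4 animals. Its deposited −log10 p was 6.09 in high fat 200 replicate 1 and 5.35 in high fat 200 replicate 7. In low fat 200 replicates 1 and 7 it was 4.25 and 4.94. In high fat 600 replicates 1 and 7 it was 4.00 and 3.74. The high and low fat 200 libraries were thus both represented by replicates 1 and 7, and low fat 600 libraries were absent. Summits of the main peaks lay 12 to 291 bp inside the gene from that end. In high fat 200 replicate 7 a further peak of 325 bp followed, with its summit 619 bp inside (−log10 p 3.84). In high fat 200 replicate 1 and low fat 200 replicate 7 a single peak of 902 or 932 bp covered this stretch. The end of the neighbouring gene SUGP1 is 2156 bp away, and the nearest peak centre was 2157 bp from it. Of protein-coding genes, 22.4% were listed in at least 6 libraries.

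MTTP encodes the lipid-loading partner of apolipoprotein B and lies on chromosome 8 (120820660 to 120871468). It had peaks at 2 sites, and the same 3 libraries listed both: high fat 200 replicates 1 and 7 and high fat 600 replicate 7. One site was inside the gene, 120826864 to 120827669, with centres 6581 to 6613 bp from the lower end. Its −log10 p was 4.13, 4.37 and 3.35 in these 3 libraries. The other straddled the upper end, 120870811 to 120871840, with values of 4.32, 4.37 and 3.61. Summits of the 200 libraries lay 88 and 90 bp beyond that end, and the summit of the 600 library lay 225 bp inside it. No low fat library listed MTTP.

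APOB, which encodes the structural protein of very low density lipoprotein, had no peak at either end. It lies on chromosome 3 (117250096 to 117316200), and its single site was inside the gene from 117275087 to 117277229. The value was 4.88 in high fat 200 replicate 1, 5.00 in high fat 200 replicate 7 and 3.98 in high fat 600 replicate 7. The 3 summits lay within 71 bp of each other, 25810 to 25881 bp from the lower end and 40223 to 40294 bp from the upper end. The peaks were broad for member peaks, at 1348, 1137 and 2143 bp against a median of 644 bp. APOB and MTTP were listed in exactly the same 3 libraries.

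**Figure D3:**
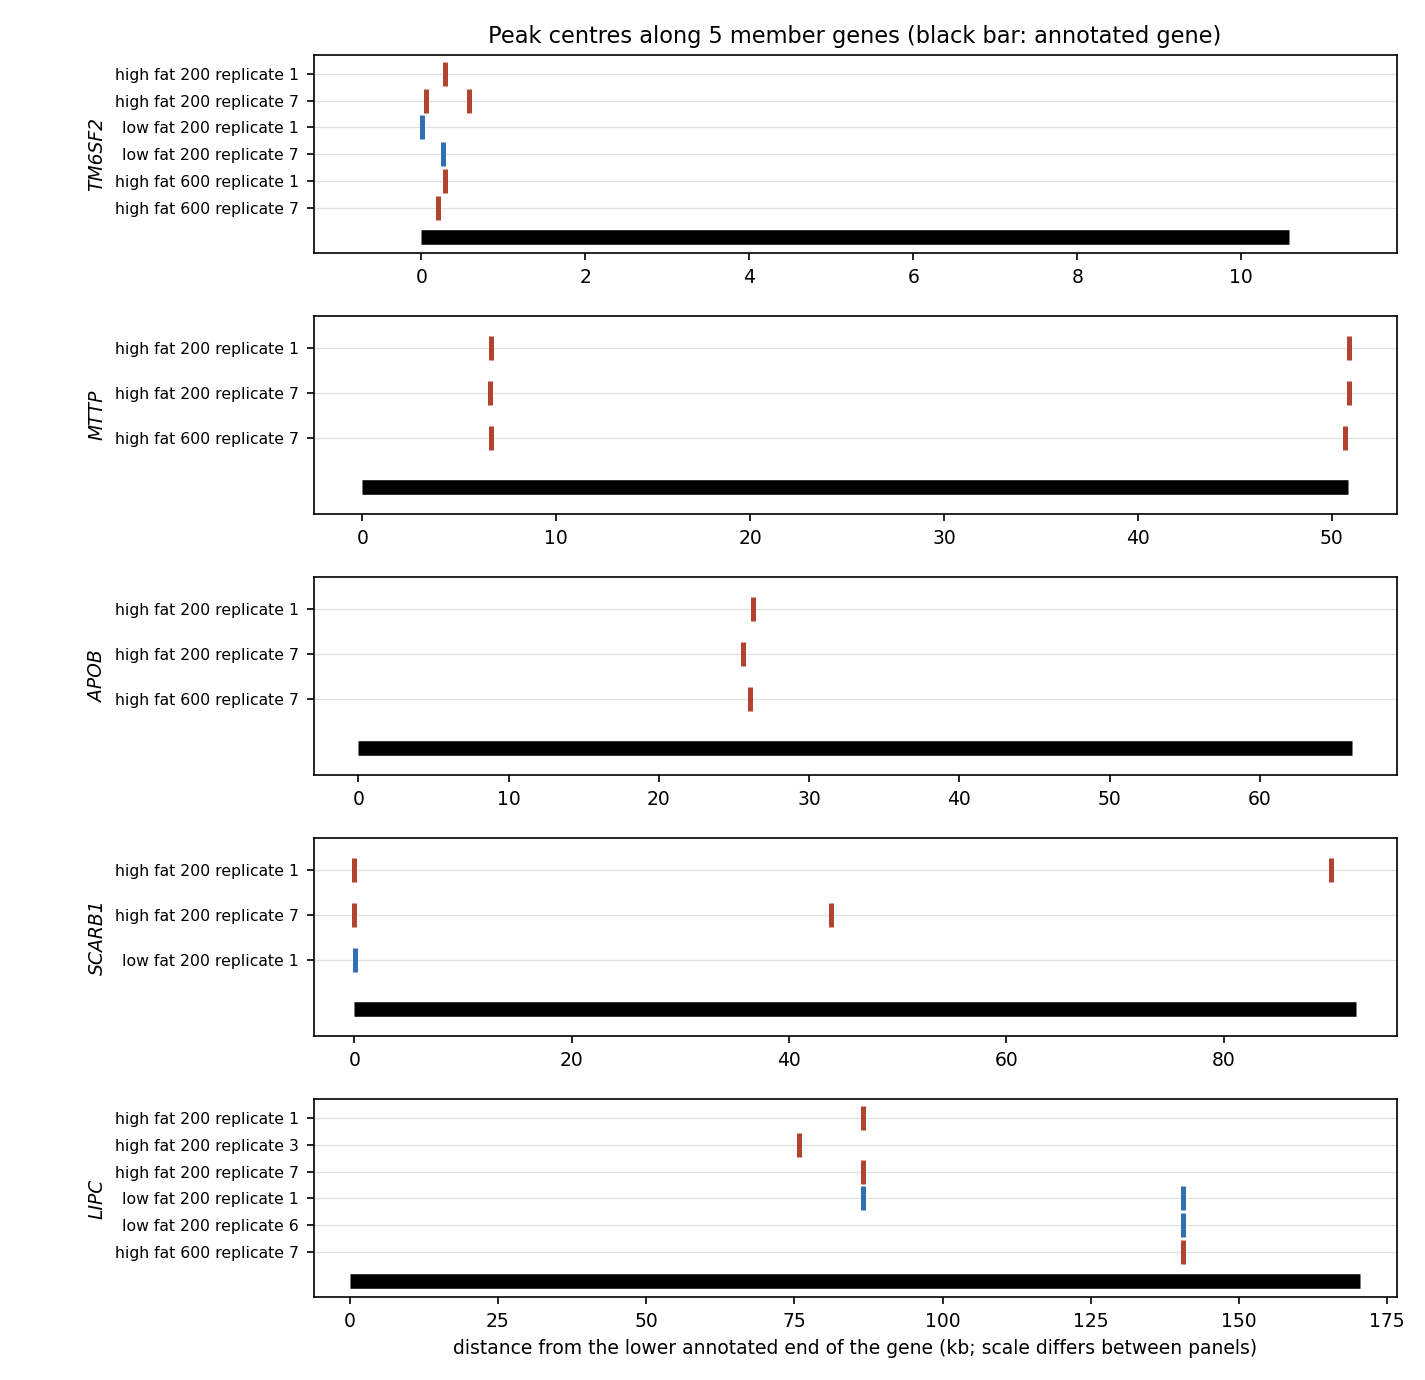
Centres of the peaks along TM6SF2, MTTP, APOB, SCARB1 and LIPC in kb from the lower annotated end of each gene, 1 row per library that lists the gene (red, high fat, and blue, low fat). Centres recur at 1 place in TM6SF2 and APOB, at 2 in MTTP and at a shared lower end in SCARB1, while those of LIPC lie far inside the gene.

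The apolipoprotein neighbourhood runs over 40.5 kb of chromosome 9 (44177834 to 44218360) in the order APOA5, APOA4, APOC3, APOA1. It held 12 peaks at 6 sites in 5 libraries of 3 animals. Of these, 5 were in high fat 200 replicate 7, 2 at APOC3 and 1 at each of the other genes. The libraries high fat 200 replicate 1, low fat 200 replicate 1 and high fat 600 replicate 7 had 2 each, and low fat 600 replicate 1 had 1. The windows of the 4 genes cover 17.8 kb together, while the windows of all protein-coding genes include the bodies of long genes. The density in high fat 200 replicate 7 was 2.81 peaks per 10 kb of window, against 0.0805 over the windows of all protein-coding genes. It was 1.12 in the libraries with 2 peaks and 0.562 in low fat 600 replicate 1. A single peak thus already exceeds the highest overall level, 0.112 in high fat 200 replicate 1, and the libraries not listing the neighbourhood have none. The 4 genes are short, so most of their window lies near gene ends.

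APOC3, an inhibitor of triglyceride clearance, was the most widely listed of the 4, with 5 libraries. Its first site covered the lower end (44210306 to 44212275). The value was 4.88 in high fat 200 replicate 1, 5.35 in high fat 200 replicate 7 and 3.86 in high fat 600 replicate 7. The summits stood 100 to 160 bp inside the gene. Only high fat libraries listed this site, and they came from 2 animals.

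The other APOC3 site lay in the 2943 bp between APOC3 and APOA1 (44213056 to 44215037). Low fat 200 replicate 1 (4.25), low fat 600 replicate 1 (3.84), high fat 200 replicate 7 (5.18) and high fat 600 replicate 7 (4.20) listed it. It was thus seen in both libraries of 1 low fat and 1 high fat animal, with centres 502 to 520 bp beyond the upper end of APOC3. It was missing from high fat 200 replicate 1, the library with the most peaks. The centres were 2423 to 2441 bp from the nearest end of APOA1, so with a window of 2500 bp APOA1 would be listed in 5 libraries rather than 2.

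APOA1, which encodes the main protein of high density lipoprotein, had 1 peak at each end, in different libraries. The lower one (44216394 to 44217108, −log10 p 3.52) was in high fat 200 replicate 7. The upper one (44218299 to 44218568, −log10 p 4.32) was in high fat 200 replicate 1. Neither site was seen in another library.

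APOA4 and APOA5 were listed at their upper ends. The APOA4 peak of high fat 200 replicate 7 (44203466 to 44204325, −log10 p 4.60) had its summit 41 bp beyond the gene, and no other library listed APOA4. APOA5, an activator of triglyceride breakdown, had a site from 44180687 to 44181358. It was listed in high fat 200 replicate 7 (3.84) and low fat 200 replicate 1 (4.25). A pair of sites lay just outside the 1000 bp rule. At 2801.5 to 2852 bp beyond the upper end of APOA4, high fat 200 replicates 1 and 7 and low fat 200 replicate 1 listed a site (44206660 to 44207124, −log10 p 3.98, 4.60 and 4.12) within the long noncoding RNA gene LOC106504887. At 1142 and 1296.5 bp below the lower end of APOA5, both libraries of high fat animal 7 listed a site inside ZPR1 (−log10 p 3.33 in the 600 and 4.37 in the 200 library).

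**Figure D4:**
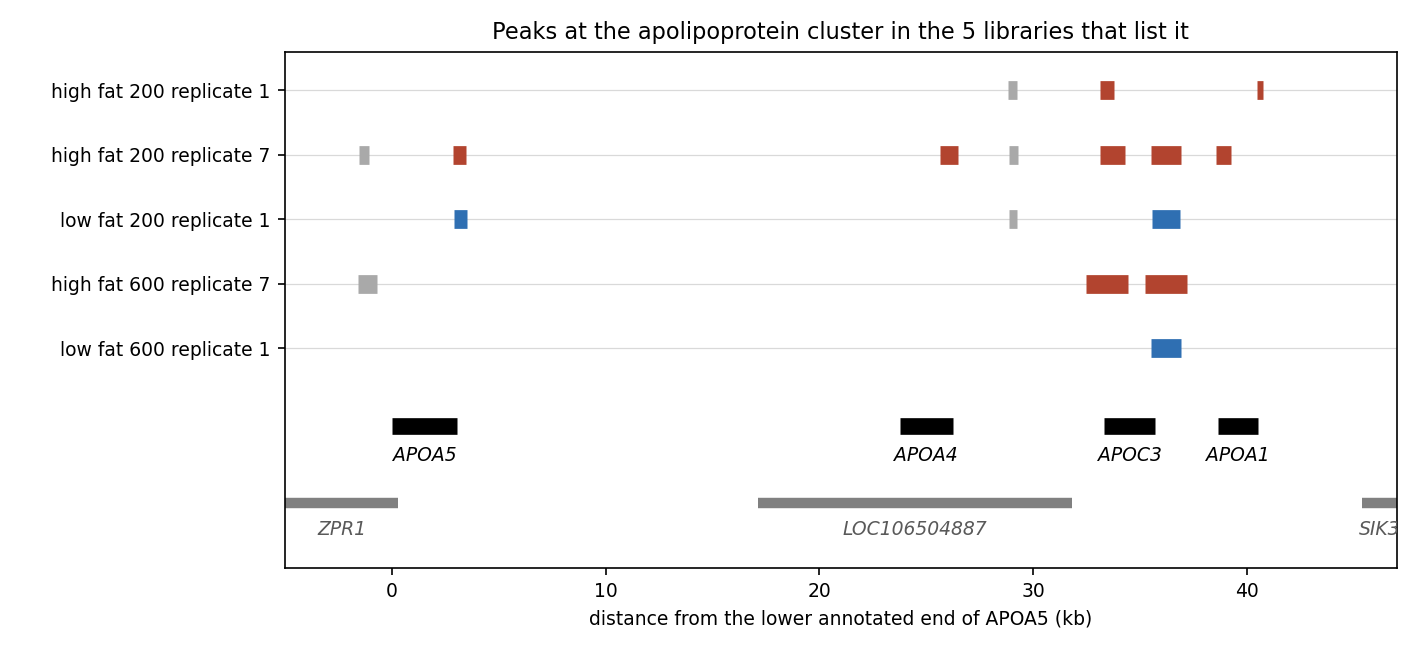
Peaks at the apolipoprotein neighbourhood, drawn to scale in kb from the lower annotated end of APOA5. Red (high fat) and blue (low fat) bars are member peaks, grey bars are peaks outside the 1000 bp rule, black bars are the genes and the bottom row is their neighbours. The gap between APOC3 and APOA1 is covered in 4 of the 5 libraries.

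Of the clearance genes, SCARB1 was listed in 3 libraries and LIPC in 6. SCARB1, the high density lipoprotein receptor on chromosome 14 (28301421 to 28393568), had a site over its lower end from 28301070 to 28301887. The −log10 p there was 4.32 in high fat 200 replicate 1, 5.18 in high fat 200 replicate 7 and 4.48 in low fat 200 replicate 1. All 3 summits lay 56 to 177 bp outside the gene. Each of the high fat libraries had a further peak inside the gene, at different places, 43906.5 bp from the lower end in replicate 7 (4.04) and 2296.5 bp from the upper end in replicate 1 (3.98). No 600 library listed SCARB1.

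LIPC encodes hepatic lipase and lies on chromosome 1 (113433684 to 113604139). It had 7 peaks at 3 sites, all inside the gene and at least 29859.5 bp from either end, and all within the long noncoding RNA gene LOC102158936, which spans LIPC. The middle site (113520078 to 113520520) was listed in high fat 200 replicates 1 (4.62) and 7 (5.26) and low fat 200 replicate 1 (4.01), with summits within 98 bp. The upper site (113573874 to 113574669) was listed in low fat 200 replicates 1 (4.01) and 6 (3.77) and high fat 600 replicate 7 (3.33), with summits within 52 bp. Neither high fat 200 replicate 1 nor replicate 7, which have the most peaks, listed it. The lowest site (113509240 to 113509735) was a weak peak of high fat 200 replicate 3 alone (3.26). LIPC is the longest of the 9 genes, and its peaks were sparse. In high fat 200 replicates 1 and 7 it had 0.0580 peaks per 10 kb, below the 0.112 and 0.0805 over all protein-coding windows. In low fat 200 replicate 1 it was 0.116 against 0.0576. In high fat 200 replicate 3, low fat 200 replicate 6 and high fat 600 replicate 7 it was 0.0580. The level over all protein-coding windows there was 0.0376, 0.0297 and 0.0453. A single peak already gives 0.0580, so each of these 4 libraries had to exceed its level once it listed LIPC. Libraries not listing LIPC had no peak there, among them low fat 200 replicate 7, with 0.0460 over all protein-coding windows. These 4 values therefore cannot decide whether LIPC held more peaks than other genes.

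Pooled over the 9 genes, 25 of 40 peaks lay within 1000 bp of a member end, and they made up 9 of the 16 sites. They include all 12 peaks of the apolipoprotein neighbourhood, whose genes are so short that most of the window lies near an end. The same share over the peaks of all genes was not counted. Of the sites, 10 were seen in 2 or more animals and 4 in 3 or more, namely the TM6SF2 site, the lower end of SCARB1 and the middle and upper sites of LIPC. The number seen in 1 library was 6.

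The comparison of high and low fat pigs, the subject of the series title, gave no detectable difference at any of these genes. In the 200 set LIPC was listed in 3 of 7 high and 2 of 7 low fat libraries, TM6SF2 in 2 and 2, and SCARB1 and the apolipoprotein neighbourhood in 2 and 1 each. Fisher's exact test gave p = 1.00 for each of these 4 (adjusted p = 1.00 over 6897 genes listed in at least 3 libraries). APOB and MTTP, with 2 of 7 against 0 of 7, were below that minimum. Without it their exact p was 0.462. No gene in the whole table passed either, so 0 of 6897 were called (0%), and 3 had an unadjusted p under 0.05. At 7 against 7 the smallest exact p is 0.000583, so no gene could pass alone over a table of this size.

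In the 600 set no neighbourhood reached 3 libraries. High against low fat counts were 2 and 0 for TM6SF2, 1 and 0 for APOB, MTTP and LIPC, 1 and 1 for the apolipoprotein neighbourhood and 0 and 0 for SCARB1. Of 3294 genes tested there by Fisher's exact test, 0 were called (0%), and 0 had an unadjusted p under 0.05. Counted once per animal over both labels, LIPC was listed in 3 and 2 animals, TM6SF2 in 2 and 2, SCARB1 and the apolipoprotein neighbourhood in 2 and 1 each (exact p = 1.00 for each, adjusted p = 1.00 over 7219 genes). Again 0 genes were called (0%), and 5 had an unadjusted p under 0.05.

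APOB and MTTP were listed in high fat pigs alone, and both in the same 2 animals, high fat 1 and 7. This is a common pattern in the whole table. Of 1895 genes listed in exactly 2 animals, 1175 (62.0%) had both of high fat, 698 had 1 of each and 22 had both of low fat. In 618 genes (32.6%) they were these same 2 animals, whose 200 libraries have the most peaks of all. With both animals left out, an alternative chosen after seeing the data, 5 of the 9 genes were still listed (TM6SF2, APOA5, APOC3, SCARB1 and LIPC), and APOB, MTTP, APOA1 and APOA4 were not.

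The 600 and 200 libraries were compared next. LIPC was listed in 1 of 14 libraries of the 600 set and 5 of 14 of the 200 set (Fisher's exact p = 0.165, adjusted p = 0.733 over 7598 genes). SCARB1 was listed in 0 and 3 (exact p = 0.222, adjusted 0.733). TM6SF2 stood at 2 and 4 (exact p = 0.648, adjusted 1.00), the apolipoprotein neighbourhood at 2 and 3, and APOB and MTTP at 1 and 2 each (exact p and adjusted p 1.00 for all 3). Each neighbourhood had fewer 600 than 200 libraries, and no difference passed the test. Of all genes 0 were called (0%), while 393 had an unadjusted p under 0.05, 392 of them listed less often in the 600 set. Whenever a 600 library listed a neighbourhood, the 200 library with the same number listed it too. For LIPC this was not at a shared site, since high fat 600 replicate 7 had the upper site and high fat 200 replicate 7 the middle one.

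Where both libraries of an animal listed a site, the 600 peak was wider and had the lower −log10 p. There were 8 such pairs in 3 animals, 6 of them in high fat animal 7. The TM6SF2 site measured 1181 bp in the 600 and 902 bp in the 200 library of high fat animal 1, with −log10 p of 4.00 and 6.09. The APOB site of high fat animal 7 measured 2143 and 1137 bp, with 3.98 and 5.00. The gap between APOC3 and APOA1 gave the smallest change, 1381 and 1299 bp in low fat animal 1, with 3.84 and 4.25. Each 600 peak was set against the strongest 200 peak it overlapped, which gave ratios of widths from 1.06 to 2.91 (median 1.77) over the 8 pairs. The highest was TM6SF2 in high fat animal 7, where the 600 peak of 1326 bp overlapped 2 peaks of the 200 library and the stronger measured 455 bp. Set against the span of both (917 bp), an alternative chosen after seeing the data, its ratio was 1.45, and the 8 ratios then ran from 1.06 to 2.58 (median 1.55). Over all overlapping pairs, counted with the strongest 200 peak, the 600 peak was the wider in 93.5% for high fat animal 1, 92.9% for high fat animal 7 and 87.5% for low fat animal 1, so the member sites went with the rest of the list. Of 13 member peaks in the 200 library of high fat animal 7, 7 overlapped a 600 peak, against 49.1% of all its peaks. In high fat animal 1 it was 1 of 9 against 25.7%, and in low fat animal 1 it was 1 of 6 against 38.4%.

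**Figure D5:**
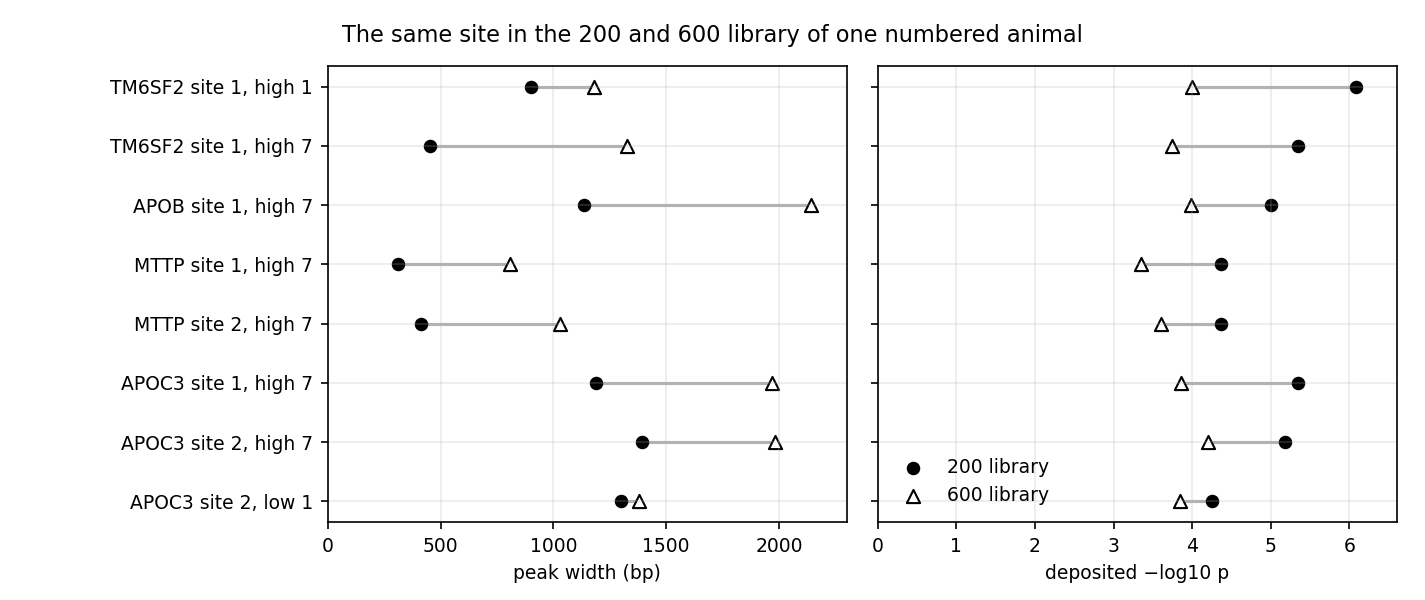
Width in bp (left) and deposited −log10 p (right) of the 8 site and animal pairs listed in both libraries of a numbered animal. Filled circles are the 200 library and open triangles the 600 library. In all 8 pairs the triangle lies at the larger width and the lower −log10 p.

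Other genes of the pathway were counted from lists by role, with 70 of 72 names matched to the table. Of these, 55 were listed at least once (78.6%, median 3 libraries), against 61.6% and a median of 1 for all protein-coding genes. The share over all genes rose with length. It was 67.1% at 10 to under 50 kb (median 2), 78.0% at 50 to under 100 kb (median 3) and 82.2% from 100 kb (median 4). The part of length in the 78.6% was not tested. No gene of these lists passed the test in either direction in any of the 4 comparisons. The lists were chosen with earlier results known, so their counts are a description.

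Other apolipoproteins stood lowest of these roles, with 3 of 8 listed (37.5%) and a median of 0 libraries. Apart from APOH (12.0 kb) and APOD (48.0 kb) they span 1.08 to 4.35 kb. Of all protein-coding genes under 10 kb, 38.7% were listed, with a median of 0, so this role stood near the share for short genes. APOM, a sphingolipid carrier, was listed in 2 libraries and APOC2 and APOC4 in 1 each, while APOA2, APOD, APOE, APOF and APOH had no peak. The windows of APOC2 and APOC4 overlap, so 1 peak could list both. Genes of assembly and secretion had 12 of 15 listed (median 4). They were led by SEC24D and SEC23A, coat proteins of vesicles leaving the endoplasmic reticulum, in 17 and 11 libraries, and by P4HB, the subunit that MTTP pairs with, in 12. KLHL12, SAR1B and SORT1 had none. Receptor and uptake genes had 9 of 12 (median 3). The proteoglycan gene SDC1 was in 6 libraries and LRP1, a remnant receptor, in 5, with CD36, PDZK1 and VLDLR at none.

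Lipases and their modifiers had 6 of 9 listed (median 1). LIPA, the lysosomal lipase, was in 9 libraries and LIPG and LMF1 in 5 each, while GPIHBP1 and PNLIP had none. Genes of high density lipoprotein formation and sterol efflux had 7 of 7 (median 4). ABCA1, the cholesterol exporter that loads apolipoprotein A-I, was in 10, PON1 in 9 and ABCG5 in 4 libraries. ABCG8 and LCAT were in 4 as well, and the windows of ABCG5 and ABCG8 overlap. Transcription factors and cofactors that act on the members had 18 of 19 (median 6), with NR5A2 in 10 and FOXA1 and ONECUT1 in 9 each, and PPARA alone had no peak. HNF4A, a nuclear receptor that acts on many apolipoprotein genes, was in 6.

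Hepatocyte markers were listed in 8 of 10 cases, with HPX in 12, FGG and TTR in 8 and ALB in 7 libraries, and APOH and ASGR1 had no peak. They reached at most 8, 7, 7 and 5 of 10 per library in the high fat 200, low fat 200, high fat 600 and low fat 600 groups, and 0 at the lowest in each. The members reached at most 9, 5, 5 and 1 of 9 in the same order. Markers of the intestine, the other tissue that makes apolipoprotein B, were listed in 2 of 6 cases, VIL1 in 2 libraries and CDX1 in 1, with CDX2, FABP2, LCT and SI at none. Of the 7 endothelial or stellate, 5 cholangiocyte and 4 adipocyte markers none was listed. Of Kupffer cell or macrophage markers 1 of 7 was (CD14, in 6 libraries), and of lymphocyte markers 2 of 6 (CD3D and NKG7, in 1 library each).

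Likeness of listing over the 28 libraries was measured by the Jaccard index, the libraries listing both divided by those listing either. For TM6SF2 it was 1.00 with AAGAB and ACAT1, for the apolipoprotein neighbourhood 1.00 with AKR1B1, BPGM and C17H20orf24, and for LIPC 1.00 with AKR1E2, ASS1 and C9H1orf21. These names are among the first in the alphabet of 61, 30 and 11 genes with the same index, and all share the libraries of high yield. Among the members APOB and MTTP had an index of 1.00, and every other pair of neighbourhoods had 0.500 to 0.600.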

How the data were processed

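Per the submitters' processing notes, FastQC, BWA, SAMtools, Picard and Genrich were used with Sscrofa11.1. Neither versions nor roles are given in the sources used here. What the authors deposited is 1 peak list per library, without read counts. Its deposited signal is the area that Genrich writes, its deposited score is 1000 times that signal over the peak width, capped at 1000, and its p-value column, per the file headers, reaches 7880.9 and thus holds −log10 p. Peak names are numbered with gaps, and no source used here says how the list was filtered. An unlisted gene can be closed or thinly sequenced, or its peak can be filtered out, and depth is unknown.

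Starts were taken to count from 0 and raised by 1. Gene positions are those of a RefSeq table for Sscrofa11.1, which has no strand. Whether a gene was listed was compared between groups by a two-sided Fisher's exact test over all protein-coding genes listed in at least 3 libraries, adjusted by Benjamini-Hochberg, and called below 0.05. The 4 genes on chromosome 9 entered as 1. The 28 libraries were mapped by title. Replicates are not stated to be separate animals, so p-values measure the spread between libraries, or between assumed animals where an animal counts once. Fisher's test of 600 against 200 leaves out the assumed pairing, which the sign test within numbers uses. On simulated lists with 200 planted genes (listing probability 0.95 against 0.05) 54.0%, 47.0%, 53.0% and 98.5% were recovered for fat in the 200 set (6897 genes), in the 600 set (3294), over animals (7219) and for 600 against 200 (7598). With 0.7 against 0.1 the shares were 0%, 0%, 0% and 35.0%. Planted genes had the same probability in every library of a group, whereas the real libraries held 39 to 17652 peaks. All 200 were planted together, so these shares do not give the power for a single neighbourhood. No count model was used, and no promoter sequence was analysed here. All members are named; of other lists, the 3 most listed per role and those with no peak; and the 3 genes most alike in listing; some that the rule names are not reported here. HNF4A, ABCG8, LCAT and ALB were added after their values were seen. The members and lists were chosen with earlier results of these data known. Alternatives were other windows, gene ends only, other ways to locate a peak, stronger peaks, no minimum, regions, a replicate block, libraries with at least 1000 peaks and each library left out. Computation used scipy 1.17.1, pandas 2.3.3 and numpy 2.4.6 in Python 3.11.15, and plots matplotlib 3.10.9.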

Additional observations from a re-analysis of the deposited data

Results flagged for a closer look

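In 3 of the 4 groups 1 library stood apart from the other 6 in the number of member genes listed. Low fat 200 replicate 1 listed 5 where the next listed 1, so the gap took 0.800 of the range of the group. High fat 600 replicate 7 listed 5 where the next listed 1 (also 0.800). Low fat 600 replicate 1 listed 1 where the others listed 0 (1.00), a flag that rests on a single peak between APOC3 and APOA1. Among 8 groups of values looked at, chance flags about 1 in 20, and counts with many zeros meet the rule more easily. Peak numbers were not flagged in any group.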

How the results depend on the processing

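For fat, the count of called genes was 0 under each of 25 alternatives in the 200 set, the 600 set and over animals; genes with an unadjusted p under 0.05 (3, 0 and 5) ranged from 0 to 72, 0 to 9 and 0 to 68, the highest with libraries of at least 1000 peaks in the first and last and with 1 library left out in the 600 set. For 600 against 200 the count was 0 except with a window of 2500 bp (2), a window of 5000 bp (3) and chained regions (42, of which 41 were listed less often in the 600 set and none was a member site; 9 member sites were tested). With 1 library left out it was 0 in all 28 fits, with 393 to 1046 unadjusted. The replicate block, an exact sign test within numbers, gave 0 calls in all 4 comparisons. For fat it paired high and low fat libraries by replicate number alone, and their title numbers differ. With 7 such pairs no gene could pass alone, so the 0 calls for fat add no support. For 600 against 200 it paired libraries by assumed animal. The smallest sign test p of a member was 0.125 there (LIPC, 4 animals listed in the 200 library alone and 0 in the 600 library alone). As a check of this pairing, deviations of listing from the group means, correlated across genes, were above 0.1 in 10 of 14 pairs of a 200 and a 600 library (0.00465 to 0.663), and 8 of 14 libraries matched their own number best, so they may share only a number. High and low fat libraries with 1 number gave −0.151 to 0.167 in the 200 and −0.187 to 0.675 in the 600 set, above 0.1 in 3 of 7 and 6 of 7 pairs; the median of the latter (0.337) was higher than that of the 200 and 600 pairs (0.178). Of 660 values per neighbourhood and alternative, 0 passed the adjusted test and 0 reversed a main difference in the share listed. A main difference of 0 could not count as reversed. From such a 0, TM6SF2 in the 200 set ran from −11.9 to 14.3 percentage points (high minus low fat). The apolipoprotein neighbourhood in the 600 set ran from −14.3 to 14.3. The smallest unadjusted Fisher's exact p was 0.0407 (LIPC, 600 against 200, without high fat 600 replicate 7). Of 63 counts of libraries per member, 52 stayed within 1.5 times and 11 did not. With gene ends only, APOB and LIPC went from 3 and 6 libraries to 0. With peaks above the median strength of the label, MTTP went from 3 to 1, LIPC from 6 to 2, APOC3 from 5 to 3, and APOA1 and APOA5 from 2 to 0. With 500 bp APOC3 went from 5 to 3; with 2500 or 5000 bp APOA1 went from 2 to 5, and with 5000 bp APOA4 from 1 to 3. With 1 library left out, chosen after seeing the data, 8 to 9 members were still listed, and without high fat animals 1 and 7 it was 5. Without high fat 200 replicate 1 or without high fat 200 replicate 7, APOB, MTTP and SCARB1 were listed in under 3 libraries, and without the latter APOA4 was not listed. Without low fat 200 replicate 1 this held for SCARB1, and without high fat 600 replicate 7 for APOB and MTTP.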

Other observations

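Some genes beside the members, TRMT10A, SIK3 and HAPLN4, were also listed in libraries that did not list the member. TRMT10A, a transfer RNA methyltransferase gene 7599 bp from MTTP, was listed in 9 libraries, 5 of them of low fat pigs, while no low fat library listed MTTP. SIK3, a kinase gene 4867 bp from APOA1, was listed in 6, low fat 200 replicates 4 and 6 among them, which listed no gene of the apolipoprotein neighbourhood. HAPLN4, whose lower end overlaps the upper end of TM6SF2, was listed in 5, including low fat 600 replicate 6, which listed no member. Its peaks lay 3415 to 4438.5 bp beyond TM6SF2 with −log10 p of 3.39 to 5.35. SUGP1 was listed in 4, the 200 and 600 libraries of high fat animals 1 and 7, all of which list TM6SF2. ZPR1 was listed in 2, both of high fat animal 7. The long noncoding RNA genes on either side of APOB were listed in 1 library each, both among those that list APOB.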
